A study of Homo sapiens with 12 samples.

Results

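The response of AC16 cells to their first 24 h pulse of type I interferon was measured by RNA sequencing, and the genes described here are mainly those outside the best known antiviral programme. AC16 is a human line derived from adult ventricular heart cells by fusion with an immortalised fibroblast line. Acute cells received recombinant human interferon alpha-2a at 1000 U/mL and were harvested at the end of the 24 h pulse. For vehicle cells, also labelled 24 h, phosphate-buffered saline took the place of interferon. Both groups are wild type for the labelled genotype and share 1 batch label. Each group has 3 libraries, so the comparison is between 6 of the 12 libraries in the series, chosen by their labels. The other 6 libraries are 3 from recovery cells (a 24 h pulse and 5 days without interferon) and 3 from repeat cells (2 pulses of 24 h with 4 days off between them). Their values are given only where they are named. They share the edgeR fit with the 6 compared libraries, so they enter its filter, scaling and estimate of spread. The labels name 2 different culture media, and a single cell line limits the comparison to that line.

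Type I interferon binds a receptor shared by nearly all nucleated cells. The receptor's JAK kinases phosphorylate STAT proteins, which enter the nucleus with IRF9 and bind the interferon-stimulated response element (ISRE), a repeat built on a GAAA core, in the promoters of antiviral genes. Beyond these direct targets, interferon is known to change lipid metabolism, growth control and the secretion of cytokines in many cell types, and cardiac cells carry the same receptor.

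The 6 libraries held 39.9 to 56.7 M estimated counts (1 M is 1000000). The first principal component of the 6 libraries held 50.1% of the variance and separated acute from vehicle cells, while the second, with 14.3%, separated the replicate numbers. Of 32 cardiomyocyte markers 12 passed the filter on low counts. The summed level of all 32 was 251 to 256 CPM (counts per 1000000, scaled by TMM) in acute libraries and 277 to 286 CPM in vehicle libraries. Most of that sum was GJA1, at 186 to 191 CPM in acute and 208 to 218 CPM in vehicle libraries, and the transcription factor GATA6 was at 40.4 to 40.6 CPM in acute and 42.9 to 45.2 CPM in vehicle libraries. MYBPC3, MYH6, MYL7, NKX2-5, NPPA and TBX5 were at 0 counts in all 6 libraries. All 14 fibroblast markers passed the filter, at a summed 13100 to 13400 CPM in acute and 13400 to 13900 CPM in vehicle libraries. The labelled cell type is cardiomyocyte, and these 6 markers of it were not detected.

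Interferon changed many genes slightly and few genes strongly. By edgeR's quasi-likelihood test 7938 of 18119 genes tested (43.8%) had a Benjamini-Hochberg adjusted p under 0.05, which is what "called" means from here on. Of these, 4049 (22.3%) were higher and 3889 (21.5%) lower in acute cells. Counts of list members below are to be read against these shares. Most called genes, 6602 or 83.2%, differed by less than 1.5-fold. Upper quartile scaling in place of TMM split the calls 3462 higher and 4478 lower, so the direction that held more genes depended on the scaling. In 52.1% of all genes the 3 acute and 3 vehicle values did not overlap. The call of a gene is written as length-sensitive where it was lost on log2(TPM + 0.5), in a fit with a gene length offset taken from the deposited counts and TPM, or in both. On log2(TPM + 0.5), 4324 genes were called, and calls in both fits and in the same direction were 2343 higher (12.9%) and 1742 lower (9.61%).

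A called change between 1.5-fold and 4-fold is called moderate here. There were 583 moderate rises (3.22% of genes tested) and 603 moderate falls (3.33%). By contrast, 132 genes rose and 18 fell more than 4-fold, and 66 of those 132 belonged to a list of 115 best known antiviral genes. Of the moderate rises 447 were protein coding and 83 long noncoding, and 39 were on the antiviral list. Of the moderate falls 449 were protein coding, 102 were long noncoding and 0 were on the antiviral list, of which no gene was lower at an unadjusted p under 0.05 by edgeR, by DESeq2 or on log2 TPM. Tested against a fold of 1.5 itself with glmTreat, 548 genes (3.02%) passed, 375 higher and 173 lower. In this bulk measurement fewer cells with a transcript and less of it per cell cannot be told apart.

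Some moderately raised genes carried the ISRE core close to their start. Of the 184 moderate rises outside the antiviral list that were also called on log2 TPM, reached 10 CPM and did not overlap between the groups, 141 had a promoter in the reference table (250 bases before to 50 after the start). The core, GAAANNGAAA on either strand, was present in 12 of these 141 (8.51%). It was present in 3 of 125 promoters of the matching moderate falls (2.4%), 346 of 11825 promoters of genes tested (2.93%) and 45 of 83 promoters of the antiviral list (54.2%). Over all 27305 promoters the share was 3.65%. The gamma-activated site, TTCNNNGAA, stood in 10.6% of the moderate rises, 4.0% of the moderate falls and 6.43% of promoters of genes tested. These shares are descriptions, and most of the moderate rises had no such letters in this window.

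Promoter stretches that hold the core are shown for moderately raised genes to place the motif beside the response, from RefSeq on GRCh38.p14, 5′ to 3′ along the gene's strand, with the core in capitals (TTTCNNTTTC is the same core on the other strand). They are TRIM34 (chr11:5624851-5624980, plus strand), the Toll-like receptor adaptor MYD88 (chr3:38138540-38138660, plus strand), the opioid growth factor receptor OGFR (chr20:62804753-62804834, plus strand), the proteasome activator subunit PSME2 (chr14:24146611-24146698, minus strand) and the checkpoint ligand CD274 (chr9:5450292-5450409, plus strand), where 2 overlapping cores give 1 longer run.
TRIM34: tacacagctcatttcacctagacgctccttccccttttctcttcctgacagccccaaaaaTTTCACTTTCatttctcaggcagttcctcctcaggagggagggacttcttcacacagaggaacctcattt
MYD88: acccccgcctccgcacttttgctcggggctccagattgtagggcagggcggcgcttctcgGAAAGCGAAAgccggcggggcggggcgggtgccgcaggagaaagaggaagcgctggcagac
OGFR: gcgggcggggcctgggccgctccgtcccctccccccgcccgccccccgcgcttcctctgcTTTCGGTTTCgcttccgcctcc
PSME2: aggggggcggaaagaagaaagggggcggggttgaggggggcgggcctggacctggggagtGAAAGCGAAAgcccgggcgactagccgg
CD274: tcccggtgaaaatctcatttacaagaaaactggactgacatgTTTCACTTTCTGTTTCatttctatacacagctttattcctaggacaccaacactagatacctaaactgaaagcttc
The core began 90 bases before the annotated start in TRIM34, 61 in MYD88, 22 in OGFR and 28 in PSME2. MYD88 had 59.8, 61.1 and 61.4 CPM in acute libraries, against 20.7, 19.5 and 20.4 CPM in vehicle libraries. OGFR had 210, 200 and 209 CPM in acute libraries, against 85.7, 84.9 and 81.4 CPM in vehicle libraries. CD274, which restrains T cells, had 21.3, 19.0 and 22.1 CPM in acute libraries, against 9.25, 10.9 and 10.8 CPM in vehicle libraries. The groups did not overlap for any of these 3 genes, with log2 fold changes of 1.59 ± 0.035 (SE), 1.30 ± 0.026 and 1.02 ± 0.065 and adjusted p of 4.34e-24, 1.83e-25 and 1.12e-12 by edgeR.

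The 12 largest moderate rises among genes averaging at least 10 CPM in acute cells included genes of surface signalling, adhesion, inflammation control and metal binding. SECTM1 (chromosome 17, 82321024 to 82334074, minus strand on GRCh38), whose product binds CD7 on T and NK cells, had 34.8, 34.1 and 34.1 CPM in acute libraries, against 9.67, 8.12 and 8.31 CPM in vehicle libraries, a log2 fold change of 1.97 ± 0.055. SCUBE3 (chromosome 6, 35213956 to 35253079, plus strand), a secreted EGF-domain glycoprotein, had 42.6, 46.1 and 45.8 CPM in acute libraries, against 11.6, 11.5 and 13.4 CPM in vehicle libraries. HAS2 (chromosome 8, 121612116 to 121641440, minus strand), a synthase of the matrix polymer hyaluronan, had 40.5, 43.3 and 44.4 CPM in acute libraries, against 10.8, 11.8 and 12.5 CPM in vehicle libraries. Every acute value of these genes was more than 3 times the highest vehicle value. Desmoplakin (DSP), which anchors desmosomes to intermediate filaments, had 44.1, 43.0 and 44.8 CPM in acute libraries, against 12.4, 12.7 and 12.4 CPM in vehicle libraries. TNFAIP3 (A20), a ubiquitin-editing brake on NF-kB, had 45.3, 46.1 and 47.9 CPM in acute libraries, against 12.3, 12.6 and 15.5 CPM in vehicle libraries. The 12 genes were chosen among called genes with separate groups, so their separation is a description. Their adjusted p by edgeR lay between 1.94e-22 and 1.01e-06.

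TRIM34, PHF11, MT1X, C1S, PLXNA2 and MT2A also belonged to this set. C1S, a serine protease of the classical complement pathway, averaged 86.5 ± 5.34 CPM in acute and 26.6 ± 0.75 CPM in vehicle cells (SD, n = 3 each). PLXNA2, a semaphorin receptor, averaged 23.0 ± 1.3 and 7.43 ± 1.08 CPM in acute and vehicle cells. The PHD finger gene PHF11 averaged 17.7 ± 1.12 and 5.21 ± 0.42 CPM in acute and vehicle cells. TRIM34, a tripartite motif protein, averaged 15.1 ± 0.642 and 4.56 ± 1.15 CPM in acute and vehicle cells, and it shares its locus with a TRIM6-TRIM34 readthrough gene, so its value is uncertain.

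**Figure D1:**
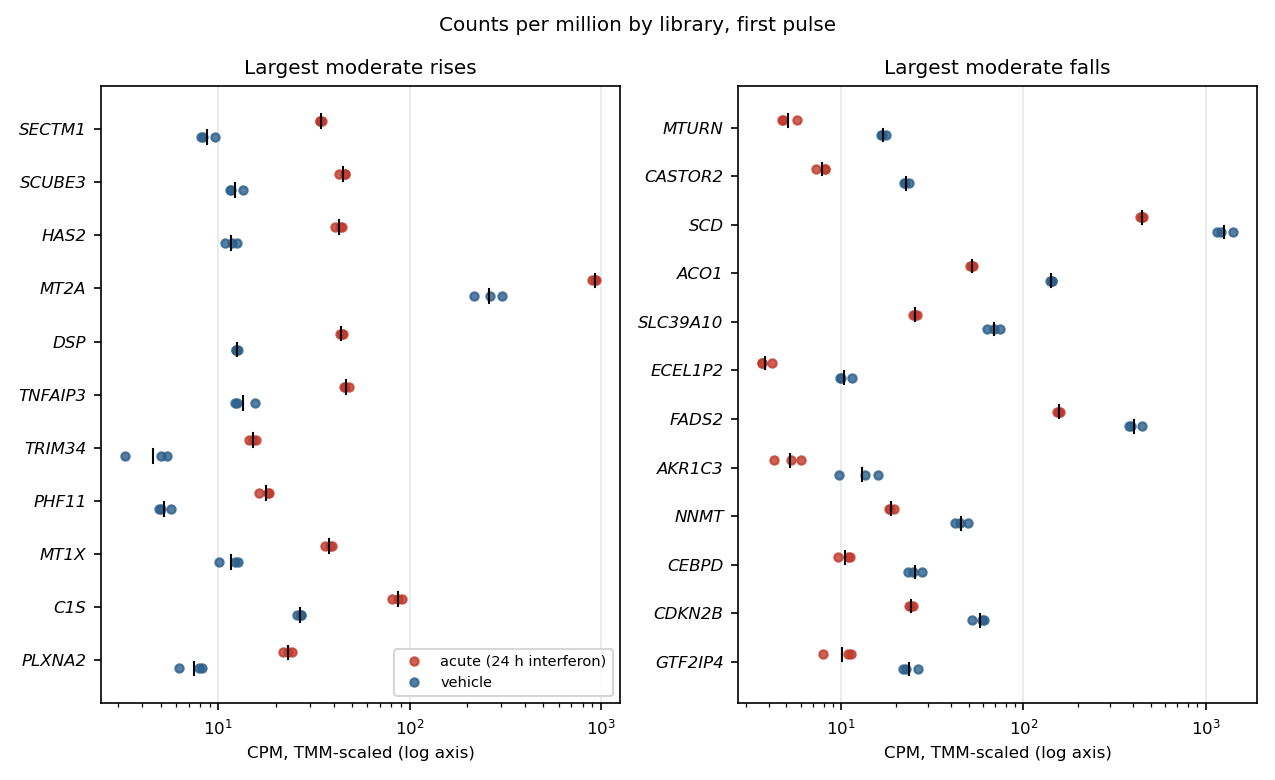
CPM (TMM-scaled, log axis) of genes among the 12 largest moderate rises (left) and the 12 largest moderate falls (right), with acute libraries above vehicle libraries for each gene. Points are the 3 libraries of a group and black bars their means, and the genes were chosen among those whose 2 groups were separate.

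The 12 largest moderate falls among genes averaging at least 10 CPM in vehicle cells included genes of lipid synthesis, iron and zinc handling and cell cycle restraint. MTURN (chromosome 7, 30134986 to 30162762, plus strand), which promotes neural differentiation in vertebrates, had 5.75, 4.81 and 4.73 CPM in acute libraries, against 17.6, 16.7 and 16.5 CPM in vehicle libraries. ACO1 (chromosome 9, 32384603 to 32454769, plus strand) encodes a cytosolic aconitase that becomes an iron-responsive RNA-binding protein when iron is low. It had 52.9, 52.2 and 51.0 CPM in acute libraries, against 143, 140 and 143 CPM in vehicle libraries, a log2 fold change of -1.45 ± 0.026 (adjusted p = 1.42e-26 by edgeR). CDKN2B, the cell cycle inhibitor p15INK4b, had 24.9, 23.6 and 24.2 CPM in acute libraries, against 61.1, 58.9 and 52.4 CPM in vehicle libraries. NNMT, which methylates nicotinamide, had 18.6, 18.3 and 19.5 CPM in acute libraries, against 49.5, 44.8 and 42.3 CPM in vehicle libraries. Acute values were below every vehicle value in each case. CEBPD, a transcription factor of the acute phase response, averaged 10.5 ± 0.85 and 25.3 ± 2.26 CPM in acute and vehicle cells (SD, n = 3 each). CASTOR2, a relative of the arginine sensor of mTORC1, the reductase AKR1C3 and the pseudogenes ECEL1P2 and GTF2IP4 completed the 12 together with SCD, FADS2 and SLC39A10. The log2 fold changes of CASTOR2, AKR1C3, ECEL1P2 and GTF2IP4 were -1.53 ± 0.065, -1.32 ± 0.204, -1.43 ± 0.088 and -1.22 ± 0.143, and all have close relatives whose reads could be shared with them.

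Metallothioneins, small cysteine-rich proteins that bind zinc and copper, rose together with a zinc exporter, while a zinc importer fell. MT2A (chromosome 16, 56608584 to 56609497, plus strand) had 895, 935 and 944 CPM in acute libraries, against 216, 264 and 302 CPM in vehicle libraries, a log2 fold change of 1.83 ± 0.11 (adjusted p = 1.01e-06 by edgeR). MT1X had 36.1, 38.4 and 39.5 CPM in acute libraries, against 10.1, 12.3 and 12.7 CPM in vehicle libraries. MT1E had the largest fold of these 3 abundant members, with 59.7, 58.1 and 58.4 CPM in acute libraries, against 7.44, 11.6 and 14.2 CPM in vehicle libraries. The scarce members showed the same direction. MT1G had 1.53, 1.16 and 1.84 CPM in acute libraries, against 0.123, 0.0905 and 0.281 CPM in vehicle libraries. MT1F had 1.09, 0.987 and 1.07 CPM in acute libraries, against 0.14, 0.0226 and 0.0866 CPM in vehicle libraries. MT1M had 0.534, 0.734 and 0.745 CPM in acute libraries, against 0, 0.0453 and 0.065 CPM in vehicle libraries. All 6 genes were called, at log2 fold changes of 3.55 for MT1F and 4.19 for MT1M. Without vehicle replicate 1 these were 4.19 for MT1F and 3.53 for MT1M, and without vehicle replicate 3 that of MT1M was 4.90. Metallothionein genes are near-identical neighbours on chromosome 16, so reads may have been split among them. MT1A, at 0.357 ± 0.0872 CPM in acute and 0.218 ± 0.0497 CPM in vehicle cells (SD, n = 3 each), was not called (log2 fold change 0.72 ± 0.369, adjusted p = 0.123 by edgeR).

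The exporter SLC30A1 and the importer SLC39A10 went in opposite directions. SLC30A1, which exports zinc across the plasma membrane, had 92.8, 102 and 96.1 CPM in acute libraries, against 35.4, 40.8 and 41.6 CPM in vehicle libraries (log2 fold change 1.31 ± 0.067). SLC39A10 (chromosome 2, 195575977 to 195737702, plus strand), which imports zinc, had 24.9, 26.2 and 25.4 CPM in acute libraries, against 74.7, 68.9 and 63.2 CPM in vehicle libraries (log2 fold change -1.44 ± 0.070). The groups did not overlap for either gene. Among other carriers SLC39A7, which releases zinc from the endoplasmic reticulum, rose by 0.27 ± 0.023, whereas SLC39A8 had a fitted log2 fold change of 0.03 ± 0.045 (adjusted p = 0.632 by edgeR). MTF1, the zinc-sensing factor that activates metallothionein genes, had 50.3, 50.7 and 48.8 CPM in acute libraries, against 43.3, 43.1 and 44.3 CPM in vehicle libraries, a length-sensitive call. Of 26 metallothionein and zinc carrier genes that passed the filter 14 were higher and 2 lower, with a median log2 fold change of 0.15 against 0.0 over all genes tested. This list was put together after its values had been seen.

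The MT2A promoter is shown because it holds many copies of the metal response element core (TGCACNC or TGCGCNC, either strand, here in capitals). The 250 bases before the start lie at chr16:56608334-56608583 on the plus strand (GRCh38.p14, RefSeq).
MT2A: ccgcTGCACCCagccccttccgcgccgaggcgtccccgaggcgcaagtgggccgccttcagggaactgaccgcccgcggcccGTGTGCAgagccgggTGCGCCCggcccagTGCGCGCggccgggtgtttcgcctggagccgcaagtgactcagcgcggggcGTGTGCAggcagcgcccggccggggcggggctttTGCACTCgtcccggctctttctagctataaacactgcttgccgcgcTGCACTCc
The stretch has 7 cores, and the whole promoter window of 300 bases has 8. MT1X had 4 cores, SLC30A1 had 2 and SLC39A10 had 0 in the same window. Among all 27305 promoters 29.3% held at least 1 core, 8.59% at least 2 and 0.593% at least 4. These letters describe the sequence and do not show that a factor bound there.

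Genes of fatty acid synthesis fell, both the main regulator and several enzymes. SREBF1 (chromosome 17, 17810399 to 17837002, minus strand), the transcription factor that drives fatty acid synthesis, had 63.3, 61.9 and 63.5 CPM in acute libraries, against 154, 147 and 139 CPM in vehicle libraries (log2 fold change -1.22 ± 0.040, adjusted p = 2.45e-13 by edgeR). SCD, the desaturase that makes oleate (chromosome 10, 100347233 to 100364826, plus strand), had 448, 451 and 436 CPM in acute libraries, against 1420, 1210 and 1160 CPM in vehicle libraries. FADS2, which carries out the first desaturation step in making long polyunsaturated fatty acids, had 159, 157 and 153 CPM in acute libraries, against 449, 388 and 381 CPM in vehicle libraries. In all 3 genes the acute libraries lay close together and below every vehicle library. The partner desaturase FADS1 averaged 149 ± 1.33 and 270 ± 18.5 CPM in acute and vehicle cells (SD, n = 3 each). Fatty acid synthase, FASN, averaged 571 ± 4.04 and 1030 ± 68.1 CPM in acute and vehicle cells. Acetyl-CoA carboxylase, ACACA, which commits carbon to synthesis, averaged 79.4 ± 4.19 and 120 ± 5.71 CPM in acute and vehicle cells.

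The list of fatty acid synthesis had 30 members that passed the filter, of which 4 were higher and 15 lower. Falls of at least 1.5-fold were called in 9 of the 30 (3.43% of all genes tested), and the median log2 fold change was -0.14. Besides those above they were PNPLA3, a lipase of lipid droplets (-0.84 ± 0.067), ACSS2, which makes acetyl-CoA from acetate (-0.62 ± 0.056), and the acyl-CoA synthetase ACSL3 (-0.59 ± 0.026). The elongase ELOVL5 fell by 0.46 on the log2 scale (SE 0.025), and citrate lyase, ACLY, fell by 0.20 (SE 0.022), whereas the elongase ELOVL6 had 0.06 ± 0.038 (adjusted p = 0.268 by edgeR). The acyl-CoA synthetase ACSL5 was the largest rise of the list at 1.17 ± 0.048 CPM in acute and 0.496 ± 0.0653 CPM in vehicle cells (SD, n = 3 each), a length-sensitive call.

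Genes of cholesterol synthesis and uptake were lower as well, and INSIG1 had the largest fall among them. INSIG1, which holds the SREBP precursors in the endoplasmic reticulum, had 113, 115 and 113 CPM in acute libraries, against 285, 250 and 242 CPM in vehicle libraries (log2 fold change -1.19 ± 0.066). Acute values were below all vehicle values. Of 27 genes of cholesterol synthesis and uptake 0 were higher and 23 lower (21.5% of all genes tested were lower), with a median of -0.47, and 7 fell by at least 1.5-fold. For the 0 higher, edgeR's count at an unadjusted p under 0.05 was also 0, as were those of DESeq2 and on log2 TPM. HMGCS1, the synthase of an early step, fell by 0.63 on the log2 scale (SE 0.031).

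In a list of genes of the liver X receptors, which sense oxysterols, and of cholesterol export, 5 of 16 members were lower and 1 higher. The shares over all genes tested were 21.5% lower and 22.3% higher, and on log2(TPM + 0.5) 3 of the 5 falls were called. ABCA1, the cholesterol exporter, had 2.56, 2.73 and 2.49 CPM in acute libraries, against 8.41, 7.22 and 5.80 CPM in vehicle libraries. MYLIP, a ubiquitin ligase that limits cholesterol uptake, had 6.59, 7.04 and 6.87 CPM in acute libraries, against 12.6, 11.8 and 11.6 CPM in vehicle libraries. LPCAT3, which remodels phospholipids, averaged 28.7 ± 0.71 and 41.2 ± 1.56 CPM in acute and vehicle cells (SD, n = 3 each). The receptor gene NR1H2 had a fitted log2 fold change of -0.08 ± 0.034 (adjusted p = 0.0688 by edgeR), and the lysosomal cholesterol transporter NPC1 one of -0.03 ± 0.031 (adjusted p = 0.453). SOAT1, which esterifies cholesterol for storage, was the 1 member that rose, by 0.44 ± 0.024. ANGPTL4, an inhibitor of lipoprotein lipase on the list of fatty acid oxidation, had 2.05, 2.00 and 2.28 CPM in acute libraries, against 0.578, 0.430 and 0.520 CPM in vehicle libraries. Fatty acid oxidation itself moved both ways, with 9 of 28 genes higher and 9 lower, against 22.3% and 21.5% of all genes tested. ETFDH, which passes electrons from oxidation to ubiquinone, fell by 0.33 on the log2 scale (SE 0.047), the nuclear receptor PPARD rose by 0.12 ± 0.022, and the dehydrogenase ACADVL had 0.10 ± 0.021, a length-sensitive call.

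**Figure D2:**
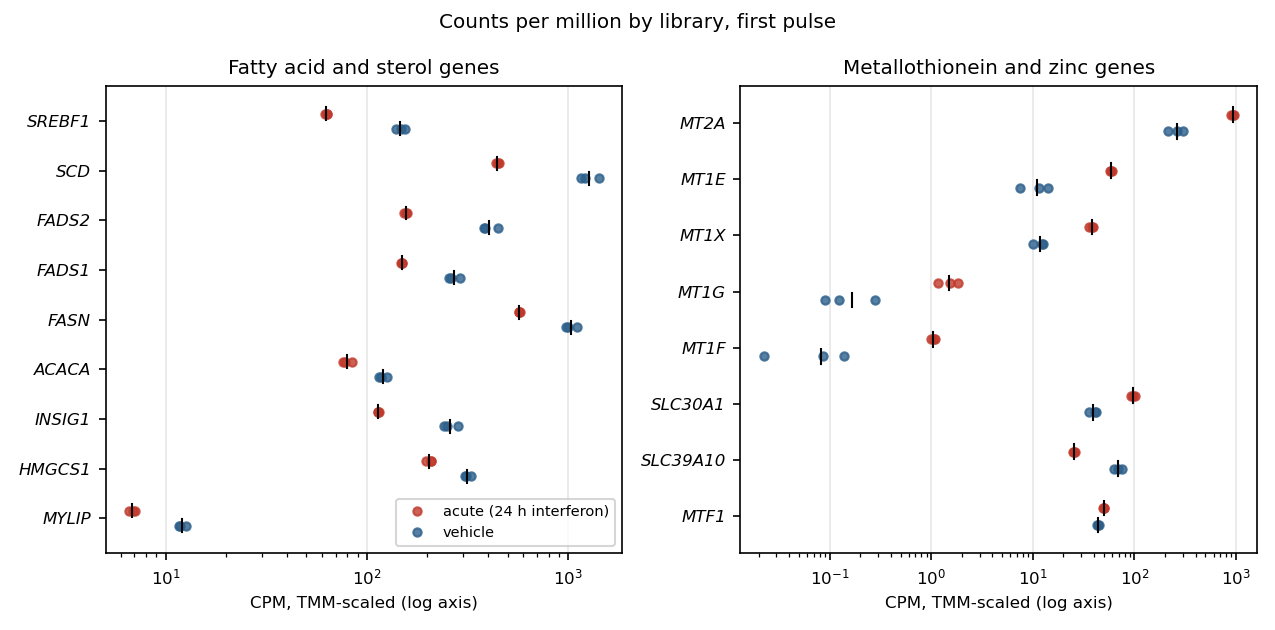
CPM (TMM-scaled, log axis) of fatty acid and sterol genes (left) and of metallothionein and zinc genes (right), with acute libraries above vehicle libraries for each gene. Points are the 3 libraries of a group and black bars their means, and SREBF1 averaged 62.9 CPM in acute and 147 CPM in vehicle cells while MT2A averaged 924 CPM in acute and 261 CPM in vehicle cells.

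Secreted factors mostly rose. Of 38 cytokines and growth factors that passed the filter 25 were higher and 3 lower, with a median log2 fold change of 0.53, and 18 rose by at least 1.5-fold (3.95% of all genes tested). EDN1, the vasoconstrictor endothelin precursor (chromosome 6, 12290361 to 12297194, plus strand), had 45.8, 44.3 and 50.8 CPM in acute libraries, against 17.4, 17.8 and 17.9 CPM in vehicle libraries (log2 fold change 1.41 ± 0.050). VEGFC, a growth factor of lymphatic vessels, had 91.6, 91.2 and 98.4 CPM in acute libraries, against 49.1, 48.0 and 51.5 CPM in vehicle libraries. HBEGF, a ligand of the EGF receptor, had 44, 41.2 and 42.9 CPM in acute libraries, against 23.5, 22.7 and 24.0 CPM in vehicle libraries. FGF5 had 159, 170 and 167 CPM in acute libraries, against 93.7, 99.8 and 100 CPM in vehicle libraries. These 4 genes were separate between the groups in every library. Smaller rises were called for FGF2 (0.41 ± 0.022), FGF1 (0.46 ± 0.041), the neuregulin NRG1 (0.45 ± 0.033), the neurotrophin BDNF (0.36 ± 0.036), and the macrophage factor CSF1 (0.43 ± 0.037).

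Among immune ligands, TNFSF13B (BAFF), a survival factor of B cells, had 1.34, 1.16 and 1.14 CPM in acute libraries, against 0.105, 0.0453 and 0.130 CPM in vehicle libraries. IL6 had 8.17, 6.91 and 8.25 CPM in acute libraries, against 4.01, 3.21 and 4.09 CPM in vehicle libraries. IL32 averaged 6.47 ± 0.88 and 2.42 ± 0.143 CPM in acute and vehicle cells (SD, n = 3 each). The levels of these genes were low, but the groups did not overlap. CXCL12, a chemokine for lymphocytes and progenitors, rose by 0.19 ± 0.021. The 3 falls were in CCL2, which attracts monocytes (-0.42 ± 0.071), VEGFA (-0.33 ± 0.034) and VEGFB (-0.28 ± 0.045), the last of which was length-sensitive.

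Several class I cytokine receptors fell, although more cytokine receptors were called higher than lower. LIFR had 29.3, 35.7 and 32.5 CPM in acute libraries, against 51.7, 51.8 and 46.2 CPM in vehicle libraries. OSMR had 105, 106 and 105 CPM in acute libraries, against 159, 150 and 147 CPM in vehicle libraries. IL31RA averaged 7.02 ± 0.141 and 11.4 ± 0.609 CPM in acute and vehicle cells, and the leptin receptor LEPR 14.5 ± 0.177 and 25.4 ± 2.06 CPM (SD, n = 3 each). IL6ST, the signalling chain shared by LIFR and OSMR, had a fitted log2 fold change of 0.08 ± 0.029 (adjusted p = 0.0369 by edgeR), a length-sensitive call that was also lost without 4 of the 6 libraries in turn (0.07 without each of acute replicates 2 and 3 and vehicle replicates 2 and 3) and with upper quartile scaling (0.05). The ligand LIF, in contrast, averaged 43.3 ± 2.54 CPM in acute and 21.0 ± 1.51 CPM in vehicle cells. Over the 31 cytokine receptors 13 were higher and 8 lower. IL15RA, which presents IL-15 to lymphocytes, rose most, with 2.92, 2.76 and 3.00 CPM in acute libraries, against 0.736, 0.747 and 0.758 CPM in vehicle libraries. IL7R (0.43 ± 0.026) and the TWEAK receptor TNFRSF12A (0.35 ± 0.021) rose less.

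Among 38 genes that report or restrain ERK signalling 26 were higher (22.3% of all genes tested) and 5 lower (21.5%), with a median of 0.24. Of these 10 rose by at least 1.5-fold (3.95%), and on log2(TPM + 0.5) 1 was called lower. Cyclin D1, CCND1, had 462, 460 and 484 CPM in acute libraries, against 250, 267 and 281 CPM in vehicle libraries (log2 fold change 0.82 ± 0.037). SPRY4, an inhibitor of receptor tyrosine kinase signalling, had 36.7, 32.3 and 37.6 CPM in acute libraries, against 17.5, 17.1 and 18.4 CPM in vehicle libraries. The MAP kinase phosphatase DUSP1 averaged 94.1 ± 3.58 and 55.5 ± 1.67 CPM in acute and vehicle cells (SD, n = 3 each). The AP-1 subunit FOSL1 averaged 314 ± 14.6 and 205 ± 12.4 CPM, and the receptor kinase EPHA2 257 ± 5.23 and 154 ± 3.85 CPM, in acute and vehicle cells. The members were not uniform. JUND had 68.5, 70.3 and 69.6 CPM in acute libraries, against 114, 108 and 107 CPM in vehicle libraries, and EGR1 had a fitted log2 fold change of -0.03 ± 0.074 (adjusted p = 0.766 by edgeR). FOS, at 1.09 ± 0.13 CPM in acute and 2.02 ± 0.413 CPM in vehicle cells, was called lower, and the call was length-sensitive.

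In the TGF-beta and BMP pathway ligands and antagonists changed in both directions, with 18 of 43 genes higher and 12 lower. Over all genes tested 22.3% were higher and 21.5% lower. Of these pathway genes 13 were also called higher and 6 also called lower on log2 TPM, against 12.9% and 9.61% of all genes tested. INHBA, the activin A subunit, had 121, 124 and 130 CPM in acute libraries, against 48.6, 49.7 and 53.1 CPM in vehicle libraries. FST, the activin-binding protein follistatin, had 253, 260 and 260 CPM in acute libraries, against 123, 124 and 116 CPM in vehicle libraries. The activin ligand and its antagonist were thus both higher, at log2 fold changes of 1.31 ± 0.032 and 1.09 ± 0.029. TGFB2 had 57.6, 62 and 61.4 CPM in acute libraries, against 109, 104 and 95.5 CPM in vehicle libraries. The receptor TGFBR1 had 35.9, 37.5 and 35.8 CPM in acute libraries, against 60.6, 58.8 and 56.5 CPM in vehicle libraries. SMAD3, a signal transducer, fell by 0.40 on the log2 scale (SE 0.023), while the inhibitory SMAD7 rose by 0.67 ± 0.052. GREM1, a BMP antagonist, averaged 2280 ± 39.6 and 1510 ± 21.1 CPM in acute and vehicle cells (SD, n = 3 each).

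In Notch signalling the ligand JAG1 had 28.9, 27.7 and 30.0 CPM in acute libraries, against 13.5, 12.9 and 14.2 CPM in vehicle libraries. The target HES4 had 4.17, 3.72 and 4.54 CPM in acute libraries, against 1.17, 1.04 and 1.10 CPM in vehicle libraries, and HES1 averaged 2.83 ± 0.298 and 1.76 ± 0.447 CPM in acute and vehicle cells (SD, n = 3 each). RBPJ, the DNA-binding partner of Notch, had a fitted log2 fold change of 0.03 ± 0.023 (adjusted p = 0.32 by edgeR). MFNG, a glycosyltransferase that modifies Notch, fell by 0.77 (SE 0.218), and the receptor NOTCH2 had 0.10 ± 0.028, a length-sensitive call. Of the 25 Notch genes 7 were higher, 4 lower and 14 not called, against 22.3% higher and 21.5% lower over all genes tested. Of 32 semaphorin and axon guidance genes 13 were higher and 10 lower, against the same shares. SEMA7A, a membrane-anchored semaphorin, had 208, 210 and 223 CPM in acute libraries, against 110, 119 and 122 CPM in vehicle libraries. SEMA3A had 10.9, 10.7 and 10.6 CPM in acute libraries, against 4.52, 4.77 and 5.39 CPM in vehicle libraries, whereas SEMA6B averaged 0.994 ± 0.056 and 2.24 ± 0.164 CPM in acute and vehicle cells. Among receptors, NRP1 rose by 0.18 ± 0.035 and PLXNB2 had -0.08 ± 0.020, a length-sensitive call.

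Genes of the matrix moved both ways. Of 32 small proteoglycans and matricellular genes 10 were higher and 16 lower, and of 29 integrins and laminins 11 were higher and 13 lower. Among 35 proteases and inhibitors 18 were higher and 9 lower. Over all genes tested 22.3% were higher and 21.5% lower. ADAMTS1, a protease of aggregating proteoglycans, had 379, 368 and 398 CPM in acute libraries, against 176, 175 and 176 CPM in vehicle libraries. SERPINB2, an inhibitor of urokinase, had 29.2, 29.9 and 32.7 CPM in acute libraries, against 6.71, 8.42 and 7.88 CPM in vehicle libraries. Urokinase itself, PLAU, rose by 0.77 ± 0.060 and its receptor PLAUR by 0.66 ± 0.029. The largest fall of that list was in the membrane-type protease MMP24 (-0.81 ± 0.079), and the abundant inhibitor TIMP2 fell by 0.11 (SE 0.020). ITGA2, a collagen receptor chain, had 146, 145 and 146 CPM in acute libraries, against 55.8, 56.4 and 61 CPM in vehicle libraries, and ITGB8, which activates latent TGF-beta, had 2.24, 2.40 and 2.49 CPM in acute libraries, against 6.85, 5.48 and 5.43 CPM in vehicle libraries. The beta chain ITGB1 had a fitted log2 fold change of 0.01 ± 0.022 (adjusted p = 0.891 by edgeR), and the laminin chain LAMC1 rose by 0.11 ± 0.024. The proteoglycans LUM, DCN and GPC1 averaged 15.1 ± 0.573, 23.4 ± 0.561 and 33.8 ± 0.694 CPM in acute cells, against 29.3 ± 1.59, 40.3 ± 3.05 and 71.1 ± 0.723 CPM in vehicle cells (SD, n = 3 each), and the abundant matricellular protein SPARC rose by 0.24 ± 0.019. COL1A1, the main chain of type I collagen, fell by 0.36 on the log2 scale (SE 0.026), and fibronectin, FN1, rose by 0.37 ± 0.035. Collagens and their processing enzymes had 14 of 39 genes higher and 16 lower, against the same shares of all genes tested. The collagen oxidase LOXL3 rose most (0.62 ± 0.029), COL1A2 fell by 0.19 (SE 0.021), and COL4A4 had the largest fall (-1.35 ± 0.125), which was length-sensitive. Of the 14 fibroblast markers, which include COL1A1, LUM and DCN, 10 were lower and 2 higher, while VIM rose by 0.29 ± 0.021. TCF21, a transcription factor of cardiac fibroblast progenitors, had 0.34 ± 0.108 (adjusted p = 0.0122 by edgeR), a length-sensitive call that was also lost without acute replicate 1 (0.31), acute replicate 2 (0.29) or vehicle replicate 1 (0.30).

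Enzymes and receptors of lipid mediators rose in 12 of 23 cases (22.3% of all genes tested) and fell in 3 (21.5%), with 7 rises of at least 1.5-fold (3.95%). S1PR1, a receptor of sphingosine 1-phosphate, had 23.5, 24.5 and 23.2 CPM in acute libraries, against 12.5, 11 and 12.0 CPM in vehicle libraries. SPHK1, the kinase that makes that lipid, had 94.1, 92.6 and 99.1 CPM in acute libraries, against 53.8, 57.1 and 59.4 CPM in vehicle libraries. Receptor and enzyme were thus both higher in all acute libraries. In the prostaglandin branch the phospholipase PLA2G4A averaged 10.8 ± 0.407 and 5.64 ± 0.156 CPM, and the PGE2 receptor PTGER4 17.3 ± 0.21 and 9.92 ± 0.81 CPM, in acute and vehicle cells (SD, n = 3 each). The cyclooxygenase PTGS2 had 1.96, 1.97 and 1.70 CPM in acute libraries, against 0.596, 0.543 and 1.52 CPM in vehicle libraries, a log2 fold change of 1.10 that was 1.71 without vehicle replicate 3. The other cyclooxygenase, PTGS1, had -0.59 ± 0.176, a length-sensitive call that was also lost without acute replicate 2 (-0.44). The terminal synthase PTGES3 had -0.05 ± 0.020 (adjusted p = 0.0519 by edgeR, and 0.0443 with the replicate number as a block), and LPAR1, a receptor of lysophosphatidic acid, rose by 0.10 ± 0.025.

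The lists of nucleotide and iron genes each held 2 rises of at least 1.5-fold (3.95% of all genes tested). The iron list also held 1 such fall (3.43%), in ACO1. TYMP, thymidine phosphorylase, had 34.1, 32.3 and 34.6 CPM in acute libraries, against 4.59, 4.71 and 5.11 CPM in vehicle libraries. NT5E (CD73), which turns extracellular AMP into adenosine, had 289, 291 and 282 CPM in acute libraries, against 117, 127 and 134 CPM in vehicle libraries. RRM2, a ribonucleotide reductase subunit, had a fitted log2 fold change of -0.02 ± 0.020 (adjusted p = 0.552 by edgeR). The kinase DTYMK fell by 0.23 (SE 0.028) and thymidylate synthase, TYMS, by 0.12 (SE 0.024). Of 42 nucleotide genes 14 were higher and 10 lower, against 22.3% and 21.5% of all genes tested, and 7 and 4 of these were also called on log2(TPM + 0.5). Among 24 iron genes 9 were higher and 5 lower, against the same shares, and 6 and 2 of these were also called on log2(TPM + 0.5). The mitochondrial iron importer SLC25A28 had 36.0, 33.5 and 36.1 CPM in acute libraries, against 19.2, 17.7 and 18.8 CPM in vehicle libraries, and the transferrin receptor TFRC rose by 0.36 ± 0.023. IREB2, the paralogue of ACO1 in iron sensing, had 0.03 ± 0.030 (adjusted p = 0.473), and the ferritin chains FTH1 and FTL had 0.05 ± 0.022 and 0.06 ± 0.033 (adjusted p = 0.107 and 0.174).

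Several lists changed by small amounts, mostly in 1 direction. Of 37 genes listed for the constitutive proteasome and its activator subunits 32 were higher and 0 lower, with a median log2 fold change of 0.16. With upper quartile scaling 28 were higher and 1 lower. Only the activator subunits PSME1 and PSME2 of this list passed 1.5-fold. PSME2 had 107, 104 and 106 CPM in acute libraries, against 47.8, 44.8 and 47.2 CPM in vehicle libraries, and PSME1 averaged 70.5 ± 1.22 and 37.7 ± 1.06 CPM in acute and vehicle cells (SD, n = 3 each). The core subunit PSMA3 rose by 0.41 ± 0.032, and PSMB6, a catalytic subunit, had 0.00 ± 0.025 (adjusted p = 0.949 by edgeR). The most abundant members were PSMD2 (0.12 ± 0.021, length-sensitive) and PSME3 (0.14 ± 0.021). Of 39 genes of G2/M and mitosis 36 were lower and 0 higher, with a median of -0.22 and none past 1.5-fold. For the 0 lower proteasome and 0 higher G2/M genes, counts at an unadjusted p under 0.05, by DESeq2 and on log2 TPM were 0 too. CENPA, the centromeric histone, had 25.1, 24.9 and 24.3 CPM in acute libraries, against 33.8, 35.7 and 34.3 CPM in vehicle libraries, and the proliferation marker MKI67 fell by 0.20 (SE 0.031). ANLN, which scaffolds the cleavage furrow, fell by 0.16 (SE 0.019). Of 65 ribosomal protein genes 34 were lower and 3 higher, with a median of -0.08, and RPL7 fell by 0.31 on the log2 scale (SE 0.027), RPL4 fell by 0.14 (SE 0.021), RPL36 had 0.14 ± 0.025, a length-sensitive call, and RPS2 had 0.02 ± 0.025 (adjusted p = 0.681 by edgeR). Ribosomal protein genes have many processed pseudogenes that could share their reads. Of 17 circadian clock genes 8 were lower and 1 higher, with a median of -0.08. The output factor DBP fell by 0.79 (SE 0.134) and the repressor NR1D2 by 0.42 (SE 0.031), while CLOCK (-0.35 ± 0.044), PER3 (-0.51 ± 0.036) and CRY2 (0.28 ± 0.071) were length-sensitive.

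Mitochondrially encoded transcripts held 4.54% to 4.83% of counts in acute libraries and 5.44% to 5.76% in vehicle libraries. Of the 13 mRNAs 8 were lower and 0 higher, with MT-CO3 at 2830, 2930 and 2890 CPM in acute libraries, against 4350, 4140 and 4330 CPM in vehicle libraries. The spread within the mitochondrial genome was wide, since MT-ND4 had a fitted log2 fold change of -0.08 ± 0.044 (adjusted p = 0.185 by edgeR) and MT-RNR1, a ribosomal RNA, one of -0.67 ± 0.034. MT-CO1 fell by 0.13 (SE 0.025). For the 0 higher mRNAs, counts at an unadjusted p under 0.05, by DESeq2 and on log2 TPM were also 0. PNPT1, an exonuclease of mitochondrial RNA, had 184, 180 and 180 CPM in acute libraries, against 58.9, 61.2 and 57.6 CPM in vehicle libraries. In the list of 27 genes for mitochondrial RNA and DNA handling, 14 were higher and 2 lower. ELAC2, which cuts mitochondrial tRNA precursors, rose by 0.28 ± 0.024, the rRNA methyltransferase TFB1M fell by 0.23 (SE 0.054), and LRPPRC, which stabilises mitochondrial mRNA, had 0.16 ± 0.024, a length-sensitive call. TFAM, which packages mitochondrial DNA, had -0.06 ± 0.028 (adjusted p = 0.0923).

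**Figure D3:**
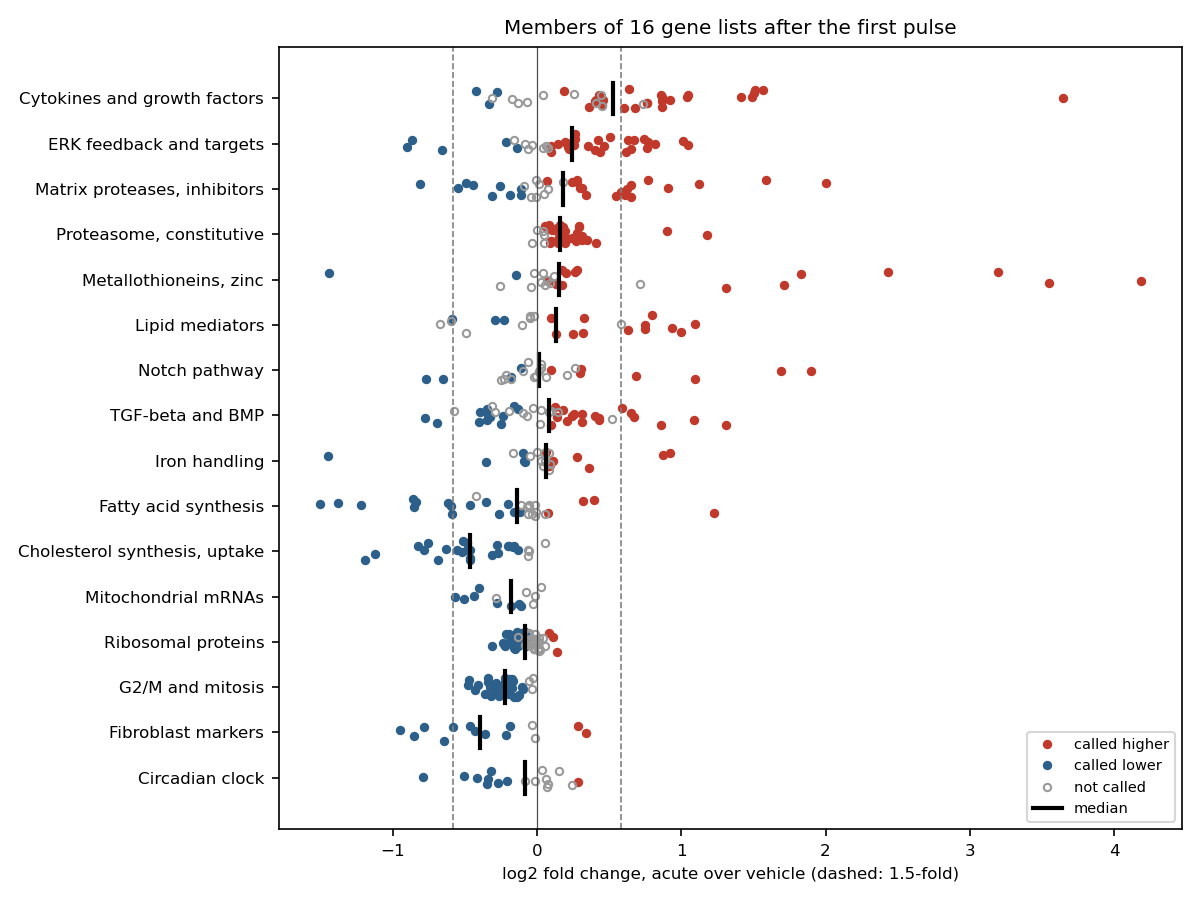
Log2 fold changes, acute over vehicle, of the members of 16 gene lists that passed the filter, each point 1 gene (red called higher, blue called lower, open grey not called), with black bars at the list medians and dashed lines at 1.5-fold. Cytokines and growth factors have a median of 0.53 and cholesterol synthesis and uptake one of -0.47, while ribosomal and G2/M genes, and proteasome genes other than PSME1 and PSME2, lie inside the 1.5-fold lines.

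The same genes were also measured in libraries outside the acute and vehicle groups. Repeat cells at the end of their second pulse were set against recovery cells, within the same fit. Recovery cells had 5 days without interferon, whereas repeat cells had 4 days off before their second pulse, and their labelled harvest days differ. The second-pulse values below therefore also hold any effect of these differences. In that comparison 21.1% of genes tested were higher and 20.5% lower. Of the 184 moderate rises eligible for naming 183 were called higher there, and of the 166 moderate falls 164 were called lower. The median log2 fold change of the rises was 0.74 in the second pulse and 0.84 in the first. That of the falls was -0.65 in the second pulse and -0.72 in the first. The response was smaller in the second pulse for 152 of the 184 rises and 132 of the 166 falls, and these genes had been chosen by their size in the first. The difference between the pulses itself was called in 14 rises and 8 falls (118 of all genes, 0.651%). That count of 118 fell to between 3 and 11 on log2 TPM or with a gene length offset.

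**Figure D4:**
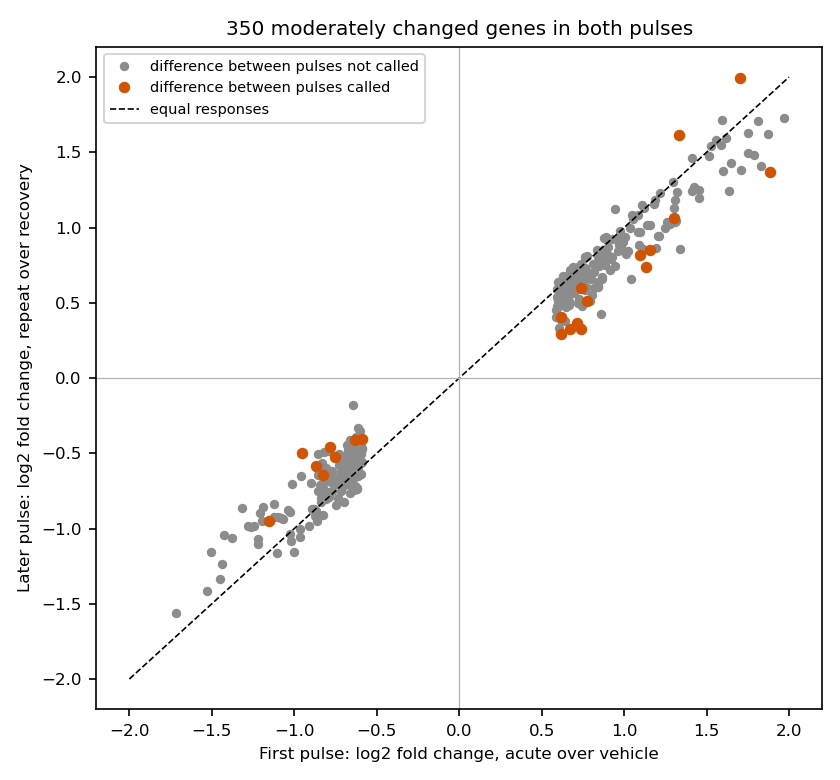
Log2 fold changes of the 350 moderately changed genes that met the conditions for naming, with the first pulse (acute over vehicle) on the x axis and the later pulse (repeat over recovery, other libraries) on the y axis. Orange points are the 22 genes whose difference between pulses was called, and the dashed line marks equal responses.

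The medians of whole lists moved unevenly. For fatty acid synthesis the median was -0.07 in the second pulse and -0.14 in the first, for cholesterol synthesis and uptake it was -0.30 in the second pulse and -0.47 in the first, and for cytokines and growth factors 0.59 in the second pulse and 0.53 in the first. SREBF1 fell by 1.10 on the log2 scale in the second pulse and SCD by 1.16, MT2A rose by 1.41 and SLC30A1 by 1.03, and SLC39A10 fell by 1.23. INHBA rose by 1.18, EDN1 by 1.24 and JAG1 by 0.97. The difference between pulses was called for SCUBE3, which rose by 1.37 in the second pulse and 1.88 in the first, and for C1S, which rose by 1.99 in the second pulse and 1.70 in the first. It was also called for LUM (-0.50 in the second pulse and -0.95 in the first) and DCN (-0.46 in the second pulse and -0.78 in the first). Among lipid genes it was called for LSS, MVD, HMGCS1 and ACSL3, each with the smaller fall in the second pulse. Reference levels differed between the 2 comparisons, and the only vehicle group is labelled 24 h. Recovery cells, the reference of the second pulse, were not harvested when that pulse began. HMGCS1 averaged 316 CPM in vehicle and 262 CPM in recovery cells, then 204 CPM in acute and 197 CPM in repeat cells. C1S averaged 26.6 and 20.2 CPM, then 86.5 and 80.2 CPM, in the same order. SCUBE3 averaged 12.2 and 19.9 CPM, then 44.8 and 51.3 CPM. The part of these reference levels in the differences was not tested, nor was that of the days off and harvest day.

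Markers of other cell types were summed in each library. Summed leukocyte markers were 226 to 241 CPM in acute and 96.3 to 97.4 CPM in vehicle libraries, of which CD68, a lysosomal glycoprotein, made up 223 to 238 and 93.2 to 94.0 CPM. CD3E, FCGR3A and MS4A1 were at 0 counts in all 6 libraries, and 4 of the 12 leukocyte markers passed the filter. CSF1R had a fitted log2 fold change of 0.16 ± 0.21 (adjusted p = 0.585 by edgeR). CD14 had -0.80 ± 0.256 (adjusted p = 0.0119), a length-sensitive call that was also lost by DESeq2 and without acute replicates 2 (-0.65) or 3 (-0.69). Summed endothelial markers were 18.8 to 19.7 CPM in acute and 17.7 to 19.3 CPM in vehicle libraries, and smooth muscle markers were 722 to 742 CPM in acute and 641 to 667 CPM in vehicle libraries. Of the 9 smooth muscle markers 2 were higher and 3 lower. LMOD1, a nucleator of actin filaments, had 2.76, 2.51 and 2.42 CPM in acute libraries, against 7.08, 6.70 and 6.47 CPM in vehicle libraries, while the actin-binding TAGLN rose by 0.33 ± 0.024. TIE1, an endothelial receptor, had 0.68 ± 0.223 (adjusted p = 0.0142), but -1.14 with the gene length offset and -0.41 on log2(TPM + 0.5), and the call was lost by DESeq2 and without acute replicate 3 (0.51) or vehicle replicate 1 (0.57). TEK had -0.10 ± 0.067 (adjusted p = 0.275) and EGFL7 0.15 ± 0.115 (adjusted p = 0.333). Among the cardiomyocyte markers that passed the filter, GJA1, the main connexin, fell by 0.17 (SE 0.023) and ACTC1, cardiac actin, had 1.59 ± 0.365, a length-sensitive call, as was GATA6 (-0.13 ± 0.034). LDB3, a Z-disc protein, had -1.18 ± 0.473 (adjusted p = 0.0449, and 0.0569 with the replicate number as a block). That call was length-sensitive and was lost by DESeq2, with no filter on low counts and without acute replicates 2 (-1.17) or 3 (-0.91) and vehicle replicates 1 (-0.84) or 3 (-1.21). The part of these levels in the results above was not tested.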

How the data were processed

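RNA of the labelled minimum quality (RIN 8) was taken in 325 ng portions for poly(A) libraries with 12 PCR cycles and 75 bp single reads, per the labels' protocols. The submitters' processing notes name STAR 2.7.11a, featureCounts 2.0.3, the trimmers cutadapt 4.3 and Trim Galore 0.6.10, edgeR and Picard 2.27.5, with GRCh38.p13, and the series text names GENCODE 41. Of the counting, the strand setting is not given in the sources used here. For the 12 libraries, the authors deposited 1 table of estimated counts and 1 of TPM (abundances scaled for gene length and depth). In the deposited counts, 25.5% of values above 0 were not whole and were rounded.

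Genes were tested with edgeR 4.0.16 (R 4.3.3) on the rounded counts of all 12 libraries, with TMM scaling, edgeR's default filter on low counts over the 4 groups (18119 genes left), a robust quasi-likelihood fit and Benjamini-Hochberg adjustment over all genes tested. The biological coefficient of variation was 2.67%. Alternatives used limma 3.58.1 on log2 TPM with pseudocounts of 0.5 and 1, DESeq2 1.42.0, other scalings, no filter and a gene length offset. Others used only the 6 libraries, a replicate block, or left out each acute or vehicle library in turn. Only the main edgeR model was tested on simulated counts, which had the same dispersion for all genes. It recovered 37 of 50 genes changed 1.5-fold and 47 of 50 changed 2-fold, and called 10 of 17585 unchanged genes. Gene names and coordinates came from GENCODE 44.

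The test behind the printed values had no pairing term. The replicate numbers in the labels were checked for it and met the condition for a replicate block as an alternative. Deviations from the group means correlated at 0.453, 0.474 and 0.40 between acute and vehicle libraries of the same number, and at -0.365 to -0.115 between libraries of different numbers. The labels call the replicates independent biological replicates.

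Named genes were the 12 largest moderate rises and the 12 largest moderate falls outside the antiviral list that reached 10 CPM in the higher group, were also called on log2 TPM and did not overlap between groups. For each described list, the called members with the largest rise and fall and the most abundant members were also named, and other members were added to complete a pathway. Some genes that this rule names are not reported here. The members and lists were chosen with earlier results of these data known. The lists of metallothionein and zinc genes and of FOXO-linked genes were chosen after their values had been seen.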

Additional observations from a re-analysis of the deposited data

Results flagged for a closer look

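The response of the second pulse (repeat minus recovery) differed from that of the first (acute minus vehicle) in 12 genes named here, by edgeR's test of the difference itself adjusted over all genes tested. The log2 difference, second minus first, was -0.51 for SCUBE3, 0.29 for C1S, 0.46 for LUM, 0.32 for DCN and 0.21 for VEGFA. It was 0.22 for HMGCS1, 0.23 for MVD, 0.18 for LSS and 0.18 for ACSL3, all lipid genes that fell in the first pulse, and -0.14 for EPHA2, -0.35 for KLF2 and -0.24 for CD68, which rose in the first pulse. Over all genes tested 118 had such a difference, a count that depended on the settings. These are differences between fold changes, and the levels of some of these genes differed between vehicle and recovery cells. Recovery and repeat cells also differed in days off and labelled harvest day.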

How the results depend on the processing

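Changing the scaling, filter or tool, using only 6 libraries or adding the replicate block kept each count of called and moderate genes within 1.5 times its value. The values that take gene length from the deposited TPM did not. With a gene length offset 4422 genes were called, 2274 higher and 2148 lower, and 361 passed the test against 1.5-fold. On log2(TPM + 0.5) these counts were 4324, 2520, 1804 and 234, with 238 moderate falls. On log2(TPM + 1) they were 4344, 2532, 1812 and 213, with 333 moderate rises and 161 moderate falls. The cause was not tested. Leaving out each acute or vehicle library in turn gave 7020 to 7356 calls, 3552 to 3715 higher and 3468 to 3666 lower. It gave 466 to 520 past the 1.5-fold test, 517 to 589 moderate rises and 525 to 595 moderate falls.

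The number of genes whose 2 pulses differed was 333 without a filter, 215 by DESeq2, 11 with the length offset, 5 on log2(TPM + 0.5) and 3 on log2(TPM + 1). It was 56 to 129 without each acute or vehicle library in turn. Recovery and repeat libraries were not left out. TIE1 was reversed, at -1.14 with the length offset, -0.41 on log2(TPM + 0.5) and -0.26 on log2(TPM + 1). With the replicate number as a block for the pairing, 7983 genes were called, PTGES3 gained the call, LDB3 lost it, and no other named call changed. Of 210 genes with recorded values 189 were called. The length offset lost 21 of these calls, log2 TPM 22 with either pseudocount, DESeq2 3, upper quartile scaling 1 and RLE scaling 0, and 6 were lost in at least 1 leave-one-out. At 39.9 to 56.7 M counts a library, a level of 1 CPM rests on about 39.9 to 56.7 counts, so levels well below it rest on few.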

Other observations

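A list was made of 30 genes that FOXO transcription factors are known to activate, or that arrest growth and restrain insulin signalling. Of these 20 were lower and 6 higher, with a median log2 fold change of -0.33 against 0.0 over all genes tested, and 14 fell by at least 1.5-fold (3.43% of all genes tested). This list was put together after its values had been seen, so its counts describe these genes only. KLF9, a Kruppel-like repressor, had 6.78, 6.3 and 6.71 CPM in acute libraries, against 16.1, 14.7 and 15 CPM in vehicle libraries. BNIP3L, a mitophagy receptor, had 98.6, 102 and 101 CPM in acute libraries, against 184, 179 and 179 CPM in vehicle libraries. The atypical cyclin CCNG2 had 12.8, 11.8 and 12.6 CPM in acute libraries, against 23.3, 22.1 and 22.1 CPM in vehicle libraries. The acute libraries were below all vehicle libraries in these 3 genes.

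Other falls were in the mTOR inhibitor DEPTOR (-1.47 ± 0.121), the stress-induced SESN3 (-1.13 ± 0.171), YPEL3 (-1.12 ± 0.072), the receptor ERBB3 (-1.08 ± 0.087), the death-associated kinase DAPK1 (-1.04 ± 0.065) and TP53INP1 (-0.84 ± 0.075). Of the factors themselves FOXO4 fell by 0.77 on the log2 scale (SE 0.071), while the calls of FOXO1 (-0.72 ± 0.159) and FOXO3 (-0.19 ± 0.037) were length-sensitive. The cell cycle inhibitor CDKN1B fell by 0.32 (SE 0.025). The Kruppel-like factors KLF2 (0.71 ± 0.047) and KLF6 (0.63 ± 0.024) rose. In the second pulse, measured in other libraries, the median of the list was -0.43.

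Subunits of the ligase that builds linear ubiquitin chains did not move alike. RNF31 rose by 0.75 ± 0.034 and RBCK1 by 0.84 ± 0.025, and SHARPIN had 0.05 ± 0.041 (adjusted p = 0.312 by edgeR).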
